A study of Mus musculus with 383 samples.

Results

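The 10 genes described here, Acta2, Actg2, Tagln, Tagln2, Cnn1, Cnn2, Tpm1, Tpm2, Myl9 and Myh11, encode the contractile apparatus of smooth muscle or close relatives of its parts. They were chosen by name, as 10 of the 49585 genes in the count table, to ask whether single tumour cells held the whole set or single genes of it. The cells came from mouse skin squamous cell carcinomas and were sequenced by Smart-seq2, which amplifies full-length cDNA of each cell without molecular identifiers. The alleles that all tumours shared included Lgr5CreER, p53fl/fl and Rosa26-YFP, so that Cre acted in cells of the Lgr5-expressing hair follicle lineage and recombined cells carried YFP. YFP+ Epcam-negative cells (Epcam-, 310 labelled, of which 47 were left out) were set against YFP+ Epcam-positive cells (Epcam+, 70 labelled, of which 8 were left out). The labels give no age, animal or tumour, and each population was therefore 1 sample, with no replicate and no test between populations.

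Cells entered with 100000 or more gene reads, 2000 or more detected genes, mitochondrial reads up to 20% and spike-in reads up to 50%. They had 104330 to 900492 gene reads in the Epcam- and 109743 to 730528 in the Epcam+ population, which sum to 107313931 and 24840769 reads. Epcam was at 22.7 CPM (counts per 1000000 gene reads, summed over the cells of a population) in Epcam- and 1069 CPM in Epcam+ cells, and 11 Epcam- cells (4.18%) held at least 5 Epcam reads after thinning to 100000 gene reads. The mesenchymal filament gene Vim was at 5809 CPM in Epcam- and 592 CPM in Epcam+ cells, and the basal keratin gene Krt14 at 1836 and 13310 CPM. Epcam- cells sat in plate rows D to P and Epcam+ cells in rows A to C, so the sorted population cannot be told apart from the position on the plate. Intervals are 95% and cover counting error only, since several reads can stem from 1 amplified molecule.

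As background, smooth muscle contracts when myosin II, built of heavy chains such as Myh11 and light chains such as Myl9, pulls on filaments of the actins Acta2 and Actg2. Tropomyosins, calponins and transgelins lie along or bundle these filaments. Many of these genes are switched on by serum response factor (SRF), which binds a DNA element called the CArG box together with myocardin or the myocardin-related factors Mrtfa and Mrtfb. The myocardin-related factors are held back by monomeric actin. Outside muscle, wound and tumour myofibroblasts build stress fibres with Acta2, and TGF-beta induces several of the same genes in fibroblasts and in epithelial cells that undergo an epithelial to mesenchymal transition. Tagln2, Cnn2, Tpm1, Tpm2 and Myl9 also serve the cytoskeleton of many other cells, whereas Acta2, Tagln, Cnn1, Actg2 and Myh11 are the members commonly used as smooth muscle markers.

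The CArG box ties these genes together, and its matches near their start sites are shown for that reason. The promoter windows were RefSeq's on GRCm38.p6, from 250 bases before to 50 bases after the start of a gene, and 7 of the 10 members had one. Matches to the CArG box, which reads the same on both strands, and matches with 1 central letter other than A or T were sought. The box occurred in 2 of the 7 windows, those of Cnn2 and Myl9, and in 1.63% of all 32851 windows. With 1 letter off allowed it occurred in 3 of the 7 and in 9.98% of all windows. No match was found in the windows of Cnn1, Tagln2, Tpm1 and Tpm2, which says only that these letters are not there. The capitals mark the match, and each line is read 5′ to 3′ on the strand of the gene.
Cnn2, chr10:79988519-79988578, + strand, box 56 bases before the start: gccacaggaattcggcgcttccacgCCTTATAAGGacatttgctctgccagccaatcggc
Myl9, chr2:156775278-156775337, + strand, box furthest from the start: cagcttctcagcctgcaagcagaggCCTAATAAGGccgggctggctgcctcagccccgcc
Myl9, chr2:156775340-156775399, + strand, 1 letter off, 99 bases before the start: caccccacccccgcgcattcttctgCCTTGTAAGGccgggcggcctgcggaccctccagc
Acta2, chr19:34255438-34255467, - strand, 1 letter off, 84 bases before the start: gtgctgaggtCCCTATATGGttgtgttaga
Acta2, chr19:34255388-34255417, - strand, 1 letter off, 34 bases before the start: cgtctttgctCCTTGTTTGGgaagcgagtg
The Acta2 matches lie before the RefSeq start but within an exon of a longer transcript in GENCODE vM21, and only 30 bases are shown for each.

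Epcam- cells had the higher level by 2-fold or more for 7 of the 10 genes, and for none was it lower by 2-fold or more. Acta2, Actg2, Tagln, Cnn1, Cnn2, Tpm1 and Myl9 were the 7, Tagln2 and Tpm2 were lower by less than 2-fold, and Myh11 was near 0 throughout. Among the 9574 genes with at least 10 CPM in either population, 15.3% were 2-fold or more higher and 12.9% were 2-fold or more lower in Epcam- cells. Cnn1 and Myh11 lay under 10 CPM in both populations, and Actg2 and Tagln reached 10 CPM only in Epcam- cells, so the share of members above 2-fold is not set against that background. The median log2 ratio of Epcam- over Epcam+ CPM, each with 1 CPM added, was 2.15 over the 10 genes, midway between Cnn2 and Acta2. The median of the genes' lower interval ends was 2.11 and that of their upper ends 2.18. These ends are not an interval of the median and leave out the spread between genes. Over all 9574 genes the median log2 ratio was -0.08. For the 10 genes, cells of plate columns 1 to 12 gave 2.32 and cells of columns 13 to 24 gave 1.31, and both populations were in both. With the median of the cells in place of the sum it was 0.62.

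**Figure D1:**
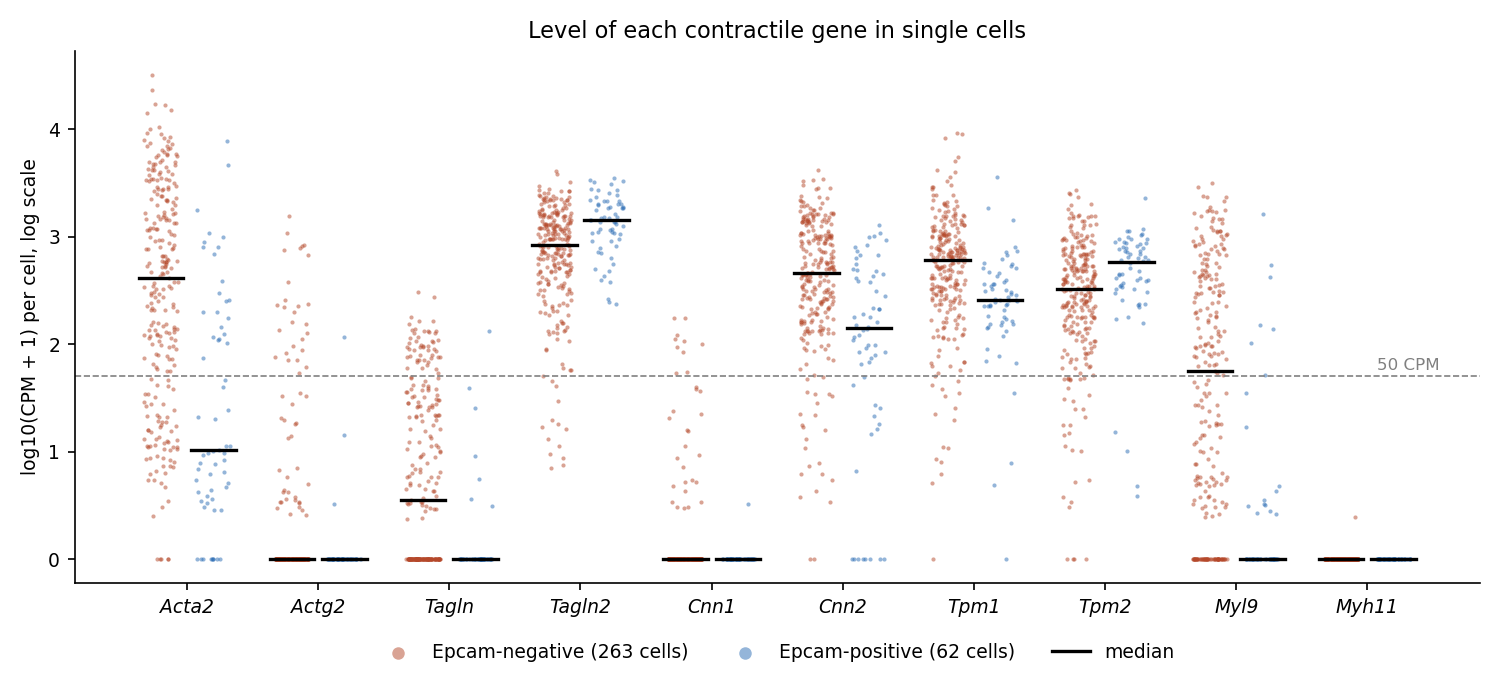
Level of each of the 10 genes in every kept cell, as log10 of CPM + 1 (a log scale), with kept Epcam- cells left of kept Epcam+ cells, a point per cell and a black line at the median. Acta2 spreads over the whole axis in Epcam- cells, with a median of 413 CPM against 9.27 CPM in Epcam+ cells, whereas Tagln2 and Tpm2 lie higher in Epcam+ cells and Myh11 has a single point above 0.

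Acta2 had the highest level per kilobase of the 10 genes in Epcam- cells. Acta2, the alpha actin of vascular smooth muscle and myofibroblasts (ENSMUSG00000035783.9, chromosome 19 from 34241090 to 34255590 of GRCm38), was at 0 to 31920 CPM in single Epcam- cells with a median of 413 CPM, and at 0 to 7811 CPM in Epcam+ cells with a median of 9.27 CPM. The populations overlapped, yet the quartiles of the Epcam- cells (46.01 and 2261 CPM) lay above those of the Epcam+ cells (2.97 and 166.1 CPM). Summed over cells it was at 2191 CPM (2182 to 2200) and 330.5 CPM (323 to 338), 6.63-fold higher in Epcam- cells, a log2 ratio of 2.72 (2.69 to 2.76). Within the Epcam- population 18 cells held 50% of the Acta2 reads, and within the Epcam+ population 3 cells did. A single Epcam+ cell held 24.9% of its population's Acta2 reads, and leaving it out gave 252.8 CPM.

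Actg2, the gamma actin of visceral smooth muscle (ENSMUSG00000059430.14, chromosome 6 from 83512905 to 83536265), had a read in 56 Epcam- cells and 3 Epcam+ cells. Its level was 48.9 CPM (47.6 to 50.2) in Epcam- and 1.57 CPM (1.12 to 2.15) in Epcam+ cells, a log2 ratio of 4.28 (3.99 to 4.56). These values rest on few cells, since 4 Epcam- cells held 50% of the reads, led by a cell at 1557 CPM, and 1 Epcam+ cell at 114.5 CPM held 84.6%. Without the cell with most reads in each population, Actg2 was at 37.7 and 0.244 CPM and the log2 ratio was 4.96.

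Tagln, which encodes the actin-bundling protein SM22 alpha (ENSMUSG00000032085.5, chromosome 9 from 45929619 to 45936058), was low in both populations. Epcam- cells held 0 to 305.5 CPM with a median of 2.51 CPM, and Epcam+ cells 0 to 131.1 CPM with a median of 0. The summed level was 27.7 CPM (26.7 to 28.7) in Epcam- and 2.54 CPM (1.95 to 3.25) in Epcam+ cells, a log2 ratio of 3.02 (2.75 to 3.29). A single Epcam+ cell held 49.2% of the Tagln reads of its population, and leaving it out gave 1.30 CPM. The level of Tagln relative to other genes is uncertain, because 67.9% of its exon bases in GENCODE vM21 overlap exons of Gm48529 and Pcsk7 on the opposite strand, and the strand setting of the authors' counting is not given in the sources used here. Gm48529 itself was at 2.20 CPM in Epcam- and 0.242 CPM in Epcam+ cells, and Pcsk7 at 18.3 and 8.05 CPM. Tagln2 (ENSMUSG00000026547.15, chromosome 1 from 172500047 to 172507380), a relative found in many cell types, went the other way and had a read in every kept cell. It was at 6.10 to 4059 CPM with a median of 839.9 CPM in Epcam- cells, and at 236.9 to 3474 CPM with a median of 1429 CPM in Epcam+ cells. The log2 ratio of its summed levels, 1076 and 1586 CPM, was -0.56 (-0.58 to -0.54).

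The calponins differed in level more than in direction. Cnn1, the basic calponin that dampens myosin activity in smooth muscle (ENSMUSG00000001349.5, chromosome 9 from 22099216 to 22109630), was read in 32 Epcam- cells and 1 Epcam+ cell. It was at 7.09 CPM (6.60 to 7.61) in Epcam- cells, and the Epcam+ level of 0.0403 CPM (0.00102 to 0.224) came from 1 read. The log2 ratio was 2.96 (2.72 to 3.02), and it was 3.56 for plate columns 1 to 12 but 0.78 for columns 13 to 24. Epcam- cells were at 11.6 CPM in columns 1 to 12 and 0.720 CPM in columns 13 to 24, and Epcam+ cells at 0.0713 and 0 CPM. With Epcam+ levels this low, the 1 CPM added limits each of these ratios. Cnn2, the calponin shared by smooth muscle and non-muscle cells (ENSMUSG00000004665.10, chromosome 10 from 79988584 to 79996062), was at 0 to 4180 CPM with a median of 457 CPM in Epcam- cells and at 0 to 1269 CPM with a median of 140.4 CPM in Epcam+ cells. The summed levels were 808.5 CPM (803.1 to 813.8) and 272.4 CPM (265.9 to 278.9), a log2 ratio of 1.566 (1.53 to 1.602).

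The tropomyosins parted in direction. Tpm1 (ENSMUSG00000032366.15, chromosome 9 from 67022590 to 67049406) had a median of 606.5 CPM in Epcam- cells, between 0 and 9286 CPM, and of 257.2 CPM in Epcam+ cells, between 0 and 3552 CPM. Its summed levels of 966.5 CPM (961 to 972) and 362 CPM (355 to 370) gave a log2 ratio of 1.41 (1.38 to 1.44). Tpm2 (ENSMUSG00000028464.16, chromosome 4 from 43514711 to 43523765) had a median of 325 CPM in Epcam- cells, between 0 and 2733 CPM, and of 575 CPM in Epcam+ cells, between 2.89 and 2275 CPM. Its summed levels were 504.5 CPM (500.3 to 509) and 598 CPM (588 to 608), a log2 ratio of -0.24 (-0.27 to -0.22). Both genes give muscle and cytoskeletal forms by splicing, which counts per gene do not separate.

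For myosin the members lay at opposite ends. Myl9, a regulatory light chain of smooth muscle and non-muscle myosin II (ENSMUSG00000067818.6, chromosome 2 from 156775420 to 156781658), was at 0 to 3168 CPM with a median of 55.3 CPM in Epcam- cells and at 0 to 1628 CPM with a median of 0 in Epcam+ cells. Its summed level was 362 CPM (359 to 366) in Epcam- and 45.9 CPM (43.3 to 48.7) in Epcam+ cells, a log2 ratio of 2.95 (2.87 to 3.04). In the Epcam+ population 2 cells held 50% of the reads. Myh11, the smooth muscle myosin heavy chain and the most restricted marker of the mature tissue (ENSMUSG00000018830.10, chromosome 16 from 14194535 to 14291372), had 1 read among 107313931 in Epcam- and 0 reads among 24840769 in Epcam+ cells. The count of 0 allows up to 0.121 CPM, and no fold is given.

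Levels of different genes were set side by side only per kilobase of exon. In Epcam- cells the order was Acta2 (998 CPM per kb), Tagln2 (517), Cnn2 (329), Myl9 (312), Tpm2 (173.4), Tpm1 (with an interval from 148.1), Actg2 (31.4), Tagln (13.9), Cnn1 (2.59) and Myh11 (0.00123). In Epcam+ cells it was Tagln2 (762 CPM per kb), Tpm2 (205.5), Acta2 (150.5), Cnn2 (110.7), Tpm1 (55.9), Myl9 (39.5), Tagln (1.28), Actg2 (1.01), Cnn1 (0.0147) and Myh11 (0). Counting intervals of neighbours overlapped in Epcam+ cells for Tagln and Actg2, and for Cnn1 and Myh11. Over single cells the ranges of all neighbours overlapped.

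**Figure D2:**
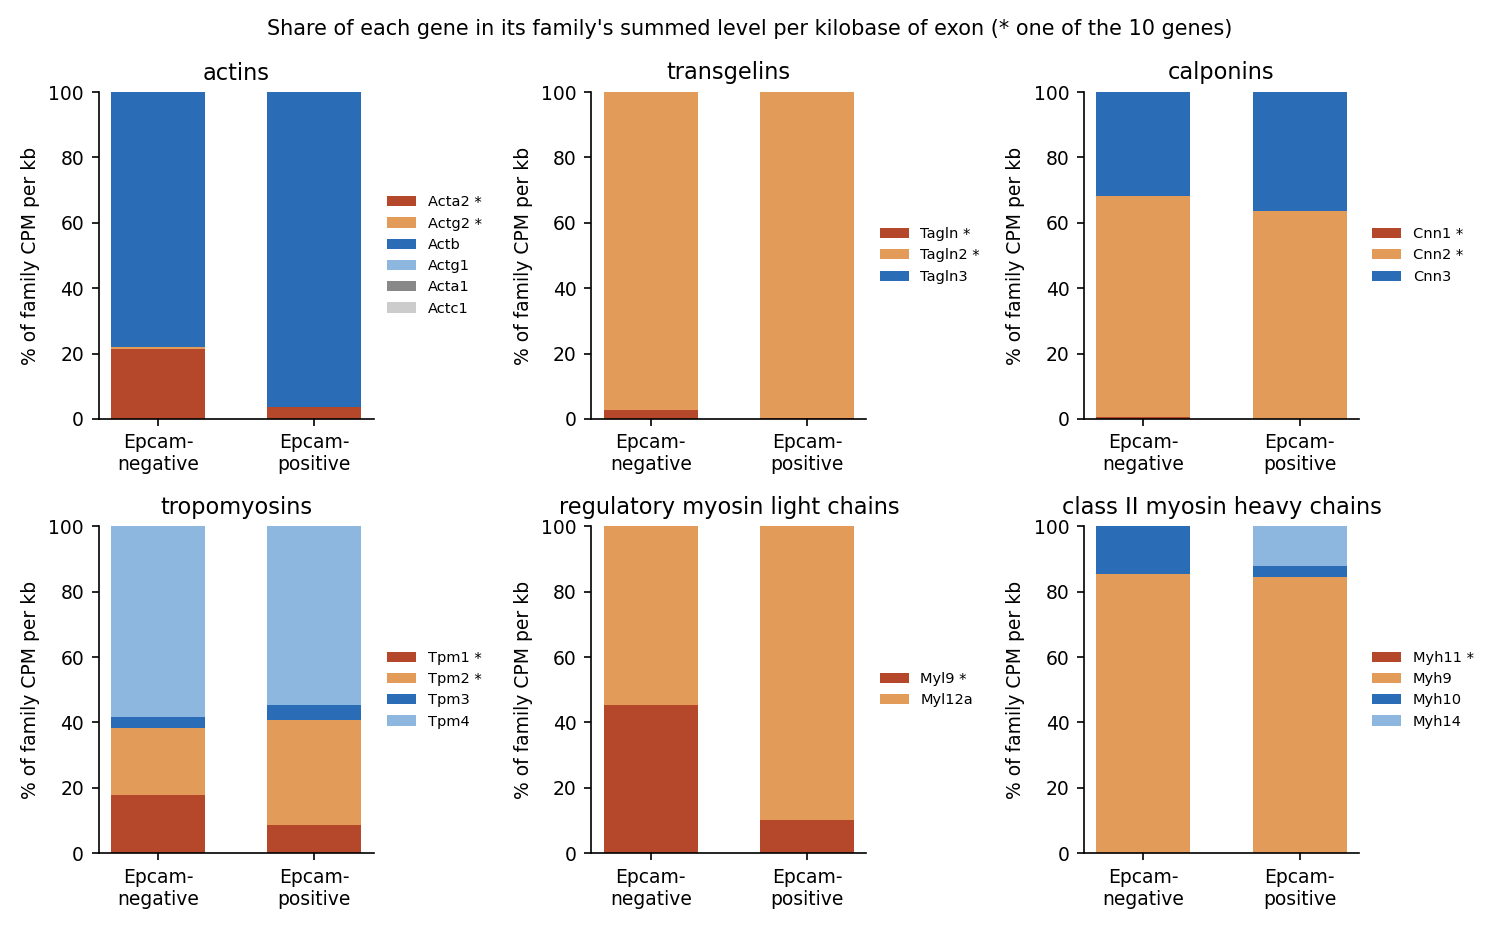
Share of each gene in the summed CPM per kb of its family, as percent, with Epcam- left of Epcam+ in each of 6 families (stacked bars, * marks the 10 genes). Acta2 makes up 21.3% of the actins in Epcam- and 3.59% in Epcam+ cells, with Actg1 at an uncertain level. Myl9 makes up 45.4% and 10.3% of the pair of light chains shown.

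Within each protein family the muscle members were set against their non-muscle paralogues on the same per-kilobase scale. Acta2 made up 21.3% of the actin level in Epcam- cells and 3.59% in Epcam+ cells, with the cytoplasmic actin Actb at 77.96% and 96.36%. Actb itself differed little, at 9798 and 10810 CPM. The other cytoplasmic actin, Actg1, was at 2.72 and 2.13 CPM, but 37.4% of its 50-base stretches also occur in transcripts of other genes. Its level and therefore the shares of all actins are uncertain. Of the stretches of each of the 10 genes other than Tagln at most 0.565% were shared with another gene. Tagln made up 2.62% of the transgelins in Epcam- and 0.167% in Epcam+ cells, and Tagln2 nearly all of the rest. These shares carry the uncertainty of the Tagln level from its exon overlap. Cnn1 made up 0.533% and 0.00845% of the calponins, against 67.6% and 63.6% for Cnn2 and 31.8% and 36.4% for the non-muscle Cnn3. Among tropomyosins Tpm1 made up 17.7% in Epcam- and 8.71% in Epcam+ cells, whereas Tpm2 made up 20.6% and 32.1% and Tpm4 58.4% and 54.7%. Myl9 made up 45.4% of the sum of Myl9 and Myl12a in Epcam- and 10.3% in Epcam+ cells, where Myl12b is left out because its symbol stands for several genes in the annotation. Myl12b was read at 115.1 CPM in Epcam- and 145.4 CPM in Epcam+ cells, and it is counted in the list of non-muscle paralogues below. Among myosin heavy chains the non-muscle Myh9 made up 85.4% and 84.4%, Myh10 14.6% and 3.42%, and Myh11 0.00616% and 0%. Of Myl12a, Cnn3, Tpm3 and Tpm4, between 15.7% and 24.0% of 50-base stretches are shared with other genes, and the shares of these families carry that uncertainty.

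To count cells at equal depth, reads were drawn down to 100000 per cell, and presence of a gene meant 5 or more of these, or 50 CPM. No cell of either population held all 10 genes, which allows shares of up to 1.14% and 4.84%, taken as 3 cells of the total, and of up to 1.39% and 5.78% as the upper ends of Clopper-Pearson intervals. This followed from Myh11, which was present in no cell. The median cell held 5 of the 10 genes in the Epcam- and 4 in the Epcam+ population. At least 7 genes were present in 50 Epcam- cells (19.01%, 14.45% to 24.28%) and 2 Epcam+ cells (3.23%, 0.393% to 11.2%). All members but Myh11 were present in 6 Epcam- cells (2.28%, 0.842% to 4.90%) and in no Epcam+ cell. Without Actg2 and Myh11, the 8 remaining genes were present together in 8 Epcam- cells (3.04%, 1.32% to 5.91%) and 0 Epcam+ cells. All 8 such cells came from plate columns 1 to 12, where they made up 5.71% of Epcam- cells, against 0% in columns 13 to 24.

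**Figure D3:**
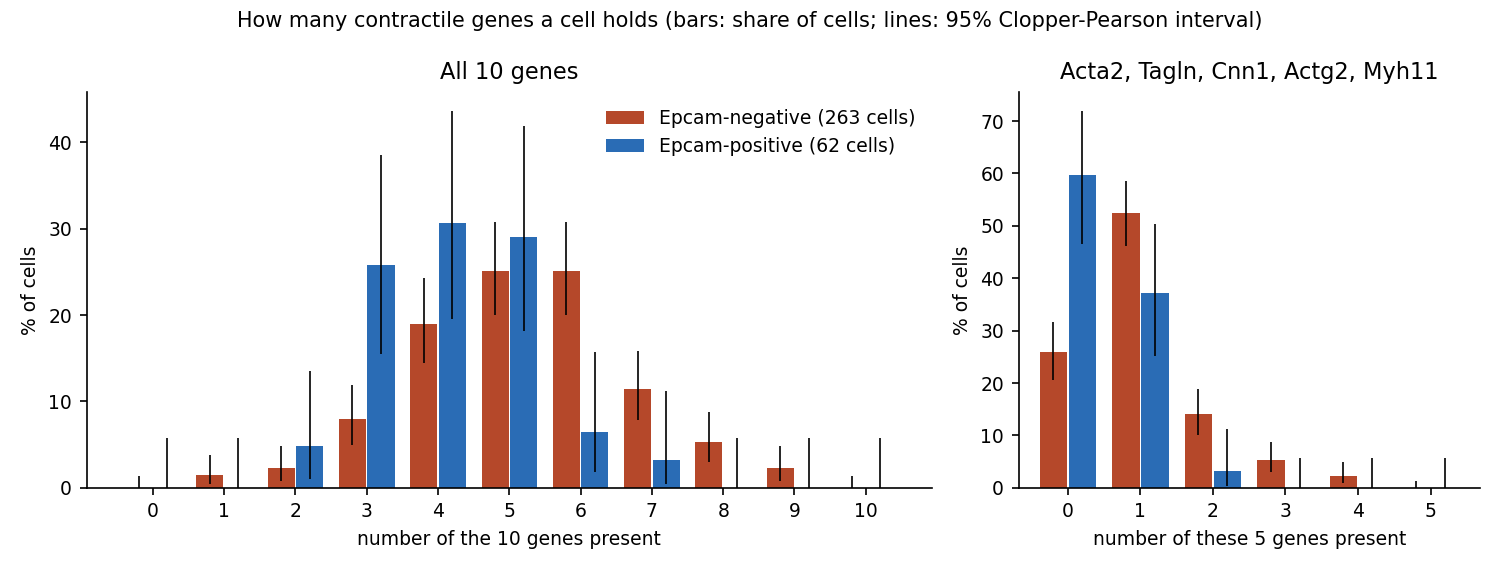
Percent of cells by the number of genes present (5 or more of 100000 thinned reads), for all 10 genes and for the 5 genes commonly used as smooth muscle markers, with Epcam- bars left of Epcam+ bars and 95% Clopper-Pearson intervals as lines. The Epcam- bars reach 9 of 10 and 4 of 5 genes, and the Epcam+ bars end at 7 of 10 and 2 of 5.

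Tagln2, Tpm1, Tpm2 and Cnn2 were present in most cells of both populations. Tagln2 was present in 95.4% of Epcam- and 100% of Epcam+ cells, Tpm1 in 93.9% and 93.5%, Tpm2 in 90.1% and 93.5%, and Cnn2 in 90.1% and 72.6%. These 4 were present together in 77.95% of Epcam- cells (72.4% to 82.8%) and 66.1% of Epcam+ cells (52.99% to 77.7%). Myl9 was present in fewer, in 49.8% (43.6% to 56.02%) and 12.9% (5.74% to 23.8%).

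Of the 5 members commonly used as markers, Acta2 alone was the most frequent state in Epcam- cells and none of them in Epcam+ cells. Acta2 was present in 74.1% of Epcam- cells (68.4% to 79.3%) and 40.3% of Epcam+ cells (28.1% to 53.6%). Tagln was present in 45 Epcam- cells (17.1%) and 1 Epcam+ cell (1.61%), Actg2 in 26 (9.89%) and 1 (1.61%), Cnn1 in 12 (4.56%) and 0, and Myh11 in 0 and 0. Of the Epcam- cells 52.5% (46.2% to 58.6%) held Acta2 and no other of these 5 genes, 57 (21.7%) held 2 or more of them, and 68 (25.9%, 20.7% to 31.6%) held none. Of the Epcam+ cells 23 (37.1%, 25.2% to 50.3%) held Acta2 alone, 2 held Acta2 with another, and 37 (59.7%, 46.4% to 71.95%) held none. A well set up without a cell, with 99241 gene reads, also reached 5 reads for Acta2 (25 reads) and for no other of these 5 genes. The shares of cells depend on the read count that defines presence. With 1 read 44.1% of Epcam- cells held 2 or more markers and 42.2% held Tagln, and with 20 reads 5.70% and 1.14% did. Median depth was 397124, 420760 and 472433 gene reads in Epcam- cells with none, 1, and 2 or more of the 5 genes, before thinning.

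The combinations were nested within Acta2. Every Epcam- cell with Tagln, Actg2 or Cnn1 present also had Acta2 present, in 45 of 45, 26 of 26 and 12 of 12 cells, whereas 68.8% of cells without Tagln had Acta2. With another draw of the thinned reads, or with presence set at 1 read, 1 cell broke this order. The nesting was not particular to Acta2, since Cnn2 was also present in 45 of 45, 26 of 26 and 12 of 12 of these cells. All genes shared 1 read count for presence while their levels differed, and the part of level in the nesting was not tested. Tagln, Actg2 and Cnn1 were not nested in each other. Of 26 cells with Actg2, 16 had Tagln and 8 had Cnn1, and of 12 cells with Cnn1, 8 had Tagln and 8 had Actg2. Tagln without Actg2 or Cnn1 was the most frequent addition to Acta2 (27 cells), followed by Tagln with Actg2 (10 cells) and Actg2 alone (8 cells). Myl9, which was not among the 5, was present in 61.5% of the Epcam- cells with Acta2 and in 16.2% of those without.

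Single cells at the ends of this range show what the counts stand for. In the 6 Epcam- cells with 9 genes, Acta2 ranged from 920 to 23010 CPM with a median of 5235 CPM, Actg2 from 94.3 to 1557 CPM, Tagln from 74.4 to 272.6 CPM and Cnn1 from 22.6 to 98.9 CPM. The same cells had 414 to 2387 CPM of Myl9, 2514 to 7543 CPM of Vim, at most 3.31 CPM of Epcam, and no read of Myh11, of the muscle filament gene Des or of the pericyte gene Rgs5. Among the Epcam- cells with Acta2 alone of the 5 markers, Acta2 ranged from 37.25 to 7750 CPM with a median of 545 CPM. The highest of these had 7750 CPM of Acta2 and 903.5 CPM of Myl9 but 20.1 CPM of Tagln and no read of Actg2 or Cnn1. A high Acta2 level was thus found with and without the other markers counted as present.

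Both Epcam+ cells with 2 markers also held Vim, and they differed in the collagen gene Col1a1. The cell with Acta2 and Tagln had 7811 CPM of Acta2, 131.1 CPM of Tagln and 1628 CPM of Myl9, together with 1116 CPM of Epcam, 2406 CPM of Krt14, 2055 CPM of Vim and 4.23 CPM of Col1a1. The cell with Acta2 and Actg2 had 694 CPM of Acta2, 114.5 CPM of Actg2 and 138.8 CPM of Myl9, with 246.4 CPM of Epcam, 7035 CPM of Krt14, 3273 CPM of Vim and 753 CPM of Col1a1. The median Epcam+ cell without any of the 5 markers had 22.4 CPM of Vim and 3.31 CPM of Col1a1. Whether a well held more than 1 cell was not tested.

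**Figure D4:**
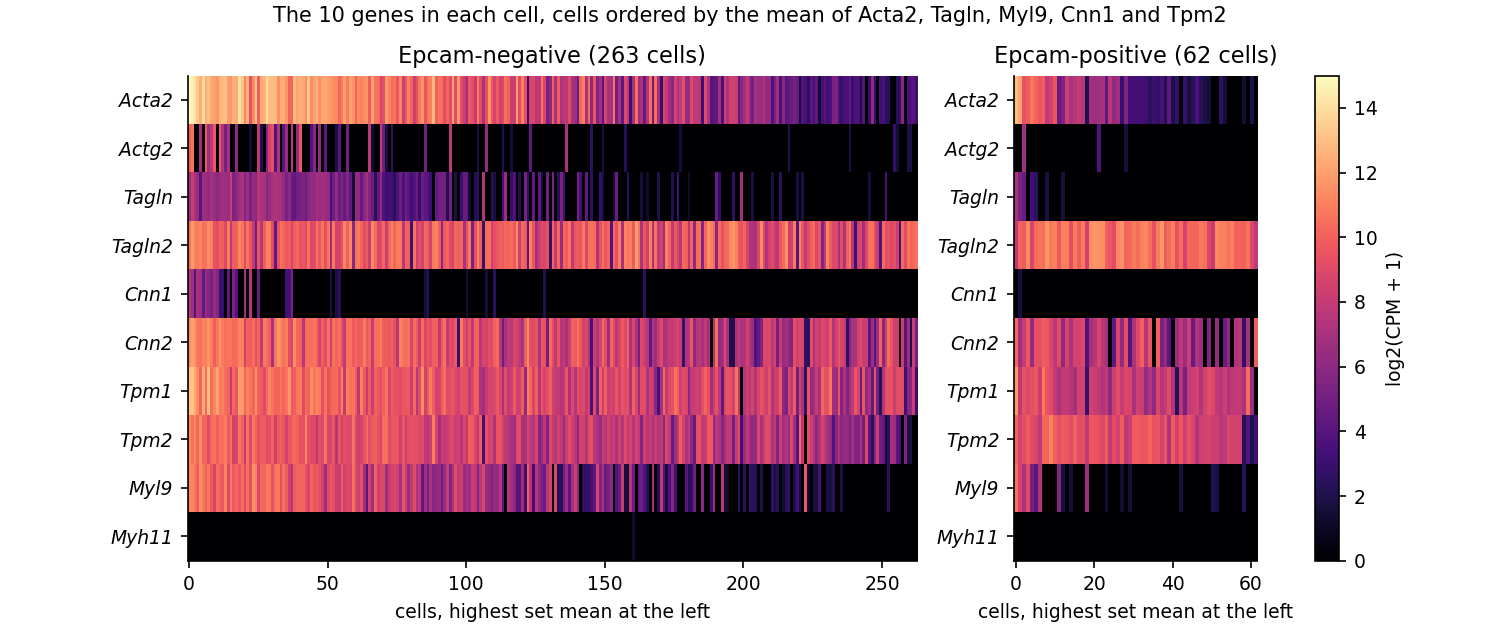
Level of the 10 genes as log2(CPM + 1) in each kept cell, with kept Epcam- cells left of kept Epcam+ cells and cells ordered by the mean of Acta2, Tagln, Myl9, Cnn1 and Tpm2. The order is set by these 5 genes, and Cnn1 and Actg2 are seen mainly at its left end.

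Across all kept Epcam- cells the members varied together to different degrees. Points in these relations share the library preparation and differ in depth, and they are descriptions of 1 sample. Spearman's correlation was 0.70 between Acta2 and Myl9, 0.69 between Acta2 and Tagln, 0.68 between Acta2 and Tpm2, 0.59 between Acta2 and Tpm1 and 0.57 between Acta2 and Cnn2. Within plate columns 1 to 12 and 13 to 24, the correlation between Acta2 and Tagln was 0.68 and 0.66, and between Acta2 and Myl9 it was 0.73 and 0.63. Tagln2 stood apart, with correlations between 0.06 and 0.30 to every other member but Myh11. Tpm2 was lower in Epcam- cells as a population, as was Tagln2, yet it varied with Acta2 among those cells. In the 62 Epcam+ cells the correlation was 0.47 between Acta2 and Tagln, 0.41 between Acta2 and Tpm2 and 0.25 between Acta2 and Myl9, and Tagln had a read in 7 of these cells.

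**Figure D5:**
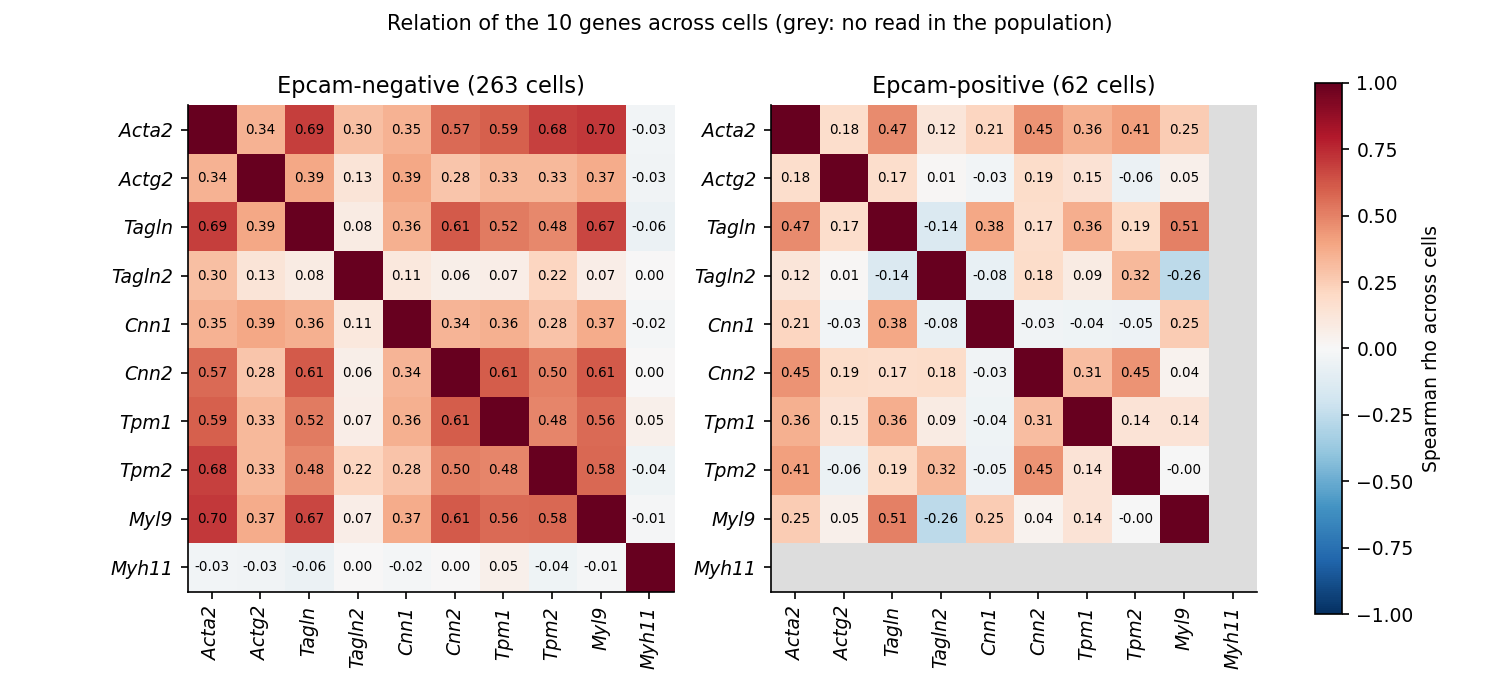
Spearman's correlation between the 10 genes across cells, with kept Epcam- cells left of kept Epcam+ cells, on a scale of -1 to 1. Acta2, Tagln, Myl9, Cnn2, Tpm1 and Tpm2 form a block of correlations from 0.48 to 0.70 in Epcam- cells, and Tagln2 and Myh11 have the lowest values.

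The mean of log2(CPM + 1) over Acta2, Tagln, Myl9, Cnn1 and Tpm2 served as a score for the set. Its correlation over the kept Epcam- cells was 0.23 with gene reads, 0.30 with the number of genes with a read and -0.31 with the plate column. Acta2 was present in 82.9% of Epcam- cells in columns 1 to 12 and 64.2% in columns 13 to 24, and in 51.6% and 29.03% of Epcam+ cells in the same columns. Median depth was 474074 and 357154 gene reads in these columns of the Epcam- cells. Markers were present, 2 or more of 5, in 27.9% of Epcam- cells in columns 1 to 12 (20.6% to 36.1%) and in 14.6% in columns 13 to 24 (8.91% to 22.1%). The part of plate position and depth in these relations was not tested. The score was close to unrelated to Epcam (correlation 0.05), Vim (0.04) and Col1a1 (0.05). This did not hold for all epithelial and mesenchymal genes. The correlation was -0.38 with Dcn, -0.155 with Krt5, -0.13 with Krt14 and -0.12 with Col3a1.

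Of 7210 other genes with at least 10 CPM that were present in at least 10% of Epcam- cells, predicted, mitochondrial and ribosomal protein genes left out, 11 had a correlation above 0.5 with the score, against a median of 0.08 over all of them. The 10 nearest were Myl12a (0.65), Actb (0.64), Myl6 (0.62), Tmsb4x (0.56), Tgfb1i1 (0.55), Tpm4 (0.55), Cald1 (0.54), Glipr2 (0.54), Ankrd1 (0.53) and Tmem123 (0.52). Among these, Myl12a and Myl6 encode myosin light chains, Actb a cytoplasmic actin, Tmsb4x an actin-sequestering peptide, Tpm4 a tropomyosin and Cald1 the actin-binding caldesmon. Tgfb1i1 encodes the focal adhesion protein Hic-5 and Ankrd1 a nuclear and sarcomeric ankyrin repeat protein. For Acta2 alone the nearest were Actb (0.64), Myl12a (0.60) and Myl6 (0.60). The lowest were the metallothionein genes Mt1 (-0.57) and Mt2 (-0.53), which encode metal-binding stress proteins.

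The levels of some of these genes are given for Epcam- cells grouped by the number of the 5 markers present, as a description, since the genes were picked for their correlation with a score that holds 3 of these markers. Median Ankrd1 was 0, 3.804, 68.1, 394 and 822 CPM in cells with 0, 1, 2, 3 and 4 markers. Median Mt1 was 1766, 719, 116.9, 106.5 and 136.7 CPM in the same groups. Actb had medians of 4183, 7601, 12160, 13800 and 16600 CPM. The groups hold 25.9%, 52.5%, 14.1%, 5.32% and 2.28% of the cells, and the number of genes with a read had medians of 5964.5, 6719.5, 6575, 7633 and 8660.5.

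The levels of Tmem123, a membrane protein gene on chromosome 9 from 7764041 to 7794333, are a description in the same way. Its median was 178.4 CPM in Epcam- cells without markers, 436 CPM with 1 and 5346 CPM with 2 or more. Its neighbours Birc2, Birc3, Yap1 and Cfap300, which lie between 7818227 and 8042823 on the same chromosome, had correlations of 0.77 to 0.83 with Tmem123 across these cells, whereas Mmp3, from 7445822 to 7455975, had a correlation of 0.02. Yap1, the coactivator of TEAD factors, was at 1026 CPM in Epcam- and 109.2 CPM in Epcam+ cells, and Tmem123 at 3236 and 250.3 CPM. Tmem123 was under 1000 CPM in 140 Epcam- cells and at or above it in the other kept ones, a value chosen after the data were seen, with 43 cells between 500 and 2000 CPM. Since Tmem123 was picked for its correlation with a score that holds Acta2, Tagln and Cnn1, the direction of the next values follows from that choice. Of the cells at or above it 34.1% had Tagln, 17.9% Actg2 and 8.94% Cnn1 present, against 2.14%, 2.86% and 0.714% of the 140 cells below 1000 CPM. Acta2 was present in 84.55% of cells at or above and in 91 of the 140 cells below, with medians of 1417 and 126.9 CPM. The correlation between Acta2 and Tagln was 0.77 in the cells at or above and 0.44 in the 140 cells, where the median of Tagln was 0.

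The regulators of these genes were measured from a fixed list of 10 that the table held. Of 7 with at least 10 CPM, 2 were 2-fold or more higher and 1 was 2-fold or more lower in Epcam- cells, with a median log2 ratio of 0.39, where 15.3% and 12.9% of all genes were. Mef2c reached 10 CPM only in Epcam- cells, so the count is not read against that background. Tead1, a partner of Yap1, was present in 75.3% of Epcam- and 35.5% of Epcam+ cells (log2 ratio of CPM 1.75), and the muscle factor Mef2c was at 18.3 and 6.08 CPM (1.45). Klf5, a factor of basal epithelium, was at 120 and 325 CPM (-1.42). Srf was at 17.4 and 16.9 CPM (0.04), Mrtfa at 23.1 and 18.3 CPM (0.32) and Mrtfb at 33.7 and 21.4 CPM (0.63). Myocd, which encodes myocardin, had 3 reads in Epcam- and 0 in Epcam+ cells.

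Other smooth muscle genes were mixed. Of 20 on the list 12 reached 10 CPM, of which 5 were 2-fold or more higher and 1 was 2-fold or more lower in Epcam- cells, with a median of 0.68. Several of them, such as Mylk and Itga8, reached 10 CPM only in Epcam- cells and Casq2 only in Epcam+ cells, so these counts are not read against the 15.3% and 12.9% of all genes. Itga8, an integrin of smooth muscle, was at 16.8 and 2.94 CPM (log2 ratio 2.17), and Hspb6, a small heat shock protein of muscle, at 35.97 and 10.1 CPM (1.73). The calcium-binding Casq2 went the other way, at 2.38 and 58.2 CPM (-4.13). Of the 20 genes 3 lay under 1 CPM in Epcam- cells, Des at 0.103 CPM, Pdlim3 at 0.158 CPM and Ppp1r14a at 0.242 CPM. Lmod1 was at 1.21 CPM, Synpo2 at 7.61 CPM and Smtn at 35.2 CPM in these cells. Of 16 stress fibre and focal adhesion genes 5 were higher by 2-fold or more and none was lower, with a median of 0.76, where 15.3% and 12.9% of all genes were higher and lower. Their largest ratios were those of Lpp (583.9 and 220.8 CPM, 1.40) and Zyx (275.1 and 117.8 CPM, 1.22), which encode adhesion proteins.

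The TGF-beta induced genes had the highest median of these lists, 2.31, with 9 of 11 higher by 2-fold or more and 1 lower, beside 15.3% and 12.9% of all genes. Postn was at 3779 and 85.02 CPM (log2 ratio 5.46), Fn1 at 3829 and 101.6 CPM (5.22) and Ccn2 at 421 and 36.4 CPM (3.50), all of which encode matrix proteins. Tgfbi went the other way, at 153.2 and 492.5 CPM (-1.68). Within Epcam- cells, however, the mean of this list had a correlation of 0.07 with the contractile score, against 0.55 for Tgfb1i1 alone and 0.24 for Ccn2. Of the non-muscle paralogues 2 of 10 were higher by 2-fold or more and 1 was lower, with a median of 0.09, shares near the 15.3% and 12.9% of all genes. Myh10 and Myh14 reached 10 CPM only in the population where they were high. Their largest ratios were those of Myh10 (30.4 and 4.15 CPM, 2.61) and Myh14 (0.0466 and 10.2 CPM, -3.42). Striated muscle genes were low, and only Tnnt2 reached 10 CPM, at 38.4 CPM in Epcam- and 157.6 CPM in Epcam+ cells (-2.01).

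Markers of other cells that hold these genes were measured beside them, and the 10 genes themselves are left out of the sums given here. Of 11 pericyte markers 3 (Abcc9, Higd1b and Vtn) lay under 1 CPM in Epcam- cells, and 4 reached 10 CPM in either population. Of these 4, 2 were 2-fold or more higher in Epcam- cells and 0 were 2-fold or more lower. Cspg4 was at 37.8 and 16.5 CPM (log2 ratio 1.15) and Rgs5 at 13.2 and 0 CPM (3.83). The others were Ndufa4l2, at 52.1 and 87.1 CPM (-0.73), and Steap4, at 105.8 and 99.4 CPM (0.09). Rgs5 reached 10 CPM only in Epcam- cells, so the count is not read against the 15.3% and 12.9% of all genes. The Epcam- cell with most reads of each gene held 46.8% of the reads for Rgs5, 97.4% for Kcnj8 and 98.6% for Higd1b. Rgs5 was present in 4 Epcam- cells (1.52%). These 4 cells held a median of 6965 CPM of Acta2, and without them Acta2 was at 2156 CPM and the median log2 ratio of the 10 genes at 2.14. The summed level of the pericyte list ranged from 0 to 8818 CPM (median 88.7) in Epcam- and from 0 to 1307 CPM (median 123.8) in Epcam+ cells. The summed vascular smooth muscle markers ranged from 0 to 1559 CPM (median 3.43) in Epcam- and from 0 to 840.3 CPM (median 3.01) in Epcam+ cells. Dermal fibroblast markers had a summed median of 1400 CPM in Epcam- and 311 CPM in Epcam+ cells, with a correlation of -0.27 to the contractile score in Epcam- cells. Myoepithelial cells hold keratins with Acta2, and the summed Krt14, Krt5, Trp63 and Oxtr had medians of 52.5, 120, 27.4, 23.3 and 22.2 CPM in Epcam- cells with 0, 1, 2, 3 and 4 markers. Of 7 immune markers 4, and of 7 endothelial markers 5, lay under 1 CPM in Epcam- cells. The immune, endothelial, skeletal muscle, and arrector pili and dermal sheath lists each had a summed median of 0 in both populations, with the highest Epcam- cells at 506, 199.6, 501 and 317 CPM. The cells were sorted as YFP+, and whether unrecombined host cells passed this gate was not tested. The part of these cell types in the results was not tested.

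Wells set up with no cell also held reads. One from the Epcam- side held 4018 gene reads, with 1 read of Acta2, 8 of Tagln2 and 0 of Tagln, Actg2, Cnn1 and Myl9. The other, from the Epcam+ side, held 99241 gene reads, just under the minimum for kept cells, with 25 reads of Acta2 (251.9 CPM), 1653 CPM of Tagln2, 5 reads of Myl9 and 0 of Tagln, Actg2 and Cnn1. Cnn2 had 16 reads, Tpm1 32 and Tpm2 53 in it. Without thinning, this well thus met the rule of 5 reads for Acta2 and no other marker. It also met that rule for Tagln2, Cnn2, Tpm1, Tpm2 and Myl9. Acta2 had no read in 5 Epcam- cells and 9 Epcam+ cells. The second of these wells also held 8230 spike-in reads, while the median kept cell had 157.2 gene reads for each spike-in read in the Epcam- and 221.1 in the Epcam+ population. Whether RNA of this kind lay in wells with a cell was not tested.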

How the data were processed

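The authors deposited raw read counts per gene and spike-in for 383 wells. Per the submitters' processing notes, the tools were cutadapt 1.13, STAR 2.5.2b and HTSeq 0.6.0, and the build was GRCm38. Annotation release and strand setting: not given in the sources used here. Of 49585 gene identifiers, 49326 were given symbols from GENCODE vM21, matched without the version. Positions, exon lengths, exon overlaps and 50-base stretches shared between transcripts are from that annotation.

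The 263 Epcam- and 62 Epcam+ cells kept were pooled by population, with counts added up and expressed as CPM. Ratios are log2 of (Epcam- CPM + 1) over (Epcam+ CPM + 1). All intervals are exact and at 95%, by the Poisson distribution (CPM), the Clopper-Pearson method (shares) and the conditional binomial (ratios). A gene with no read was given a floor of 3 reads over the population. Each population was 1 sample and cells were not taken as replicates. The scripts for ratios, thinning and likeness were tested on simulated data. No doublet caller was used, since cells were sorted singly with a doublet gate per the labels. No wells had identical counts.

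The members and lists were chosen with earlier results of these data known. Named genes are the 10 members, the 10 genes nearest to the set score and 3 nearest to Acta2, and in each list those with the largest ratios or against its median. The split by Tmem123, its neighbours, the groups by number of markers and the single cells were named after their values were seen. So were Srf, Mrtfa, Mrtfb, Myocd, Des, Lmod1, Ppp1r14a, Pdlim3, Synpo2, Smtn, Kcnj8, Dcn, Col3a1 and the presence of Cnn2 beside the nested markers. Alternatives were other cell filters, scalings (edgeR 4.0.16 TMM, DESeq2 1.42.0 size factors, spike-ins), summaries, pseudocount, presence rules and subsets of cells. Some labelled alleles and measured genes are not reported here.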

Additional observations from a re-analysis of the deposited data

Results flagged for a closer look

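The well set up with 50 cells from the Epcam- sort entered no comparison. It held 154897 gene reads, and 3 of the 10 genes lay above the level in the wells set up with no cell beyond counting error. That level comes mostly from the well on the Epcam+ side, with 99241 gene reads against 4018 in the other. The former had 8248 genes with a read, and whether it was empty was not tested. Acta2 was at 1459 CPM (1275 to 1662) in the 50-cell well, against 251.8 CPM in the 2 wells without a cell together (26 reads). Cnn2 was at 381 CPM (59 reads) against 164.6 CPM (17 reads), and Tpm1 at 594 CPM (92 reads) against 339 CPM (35 reads). Tagln2 was lower, at 833 CPM (695 to 990) in the 50-cell well against 1653 CPM (1409 to 1926) in the well without a cell from the Epcam+ side. Tagln had 2 reads, Actg2 5, and Cnn1 and Myh11 0 reads in the 50-cell well, which allows up to 19.4 CPM for a gene with 0 reads.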

How the results depend on the processing

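The median log2 ratio of the 10 genes kept its sign under every alternative run. It was 2.34 with the stricter cell filter, 1.88 with the mean and 0.62 with the median of each cell's CPM, 2.28 with TMM, 2.26 with median-of-ratios and 1.79 with spike-in scaling, 1.46 with a pseudocount of 10 CPM, 2.32 in plate columns 1 to 12, 1.31 in columns 13 to 24, 2.22 without the cell with most reads of each gene, and 2.28 without the Epcam+ cell with most Acta2, the last chosen after seeing the data. The median of cells is low because Actg2, Cnn1 and Myh11 are at 0 in the median cell of both populations. TMM, median-of-ratios and spike-in scaling moved the median of all 9574 genes by 0.13, 0.11 and -0.34. The count of genes 2-fold or more higher was 5 with the median of cells, 6 with the larger pseudocount and 6 in columns 13 to 24, where Cnn1 was the gene lost, and 7 under the others. In these columns Cnn1 was at 0.720 CPM in Epcam- and 0 CPM in Epcam+ cells, so the 1 CPM added kept its ratio under 2-fold. No ratio of a single gene that was 2-fold or more changed sign, and 83 of 140 single values moved beyond counting error. Tagln2 and Tpm2 stayed below 0 under each alternative, at -0.91 and -0.60 with spike-ins and -0.43 and -0.11 with TMM. The median number of genes present per Epcam- cell was 6 with presence at 1 read, 4 with presence at 20 reads and 6 in plate columns 1 to 12. No setting gave a cell with all 10 genes, which Myh11 fixed in advance, with 1 read in the kept Epcam- and 0 in the kept Epcam+ cells. Of the 10 genes nearest to the set, 8 or 9 remained under each other measure of likeness. No paired analysis was possible because each population was 1 sample and the numbers of cells only name them. Depth limits the rarer markers, since 5 of 100000 thinned reads correspond to 50 CPM and Cnn1 lay under 50 CPM in most cells with a read of it.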
